A study of Mus musculus with 6 samples.

Results

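The nuclear-encoded subunits of the mitochondrial respiratory chain and ATP synthase were followed in RAW264.7 cells, a mouse macrophage-like line, after exposure to itaconate. The members were taken by symbol: every row of the count table that begins with Nduf, Uqcr or Atp5, or with Cox and a digit from 4 to 8, together with Sdha, Sdhb, Sdhc, Sdhd, Cyc1 and Cycs. Pseudogene symbols ending in -ps were left out, which removed 2 rows. This gave 94 genes of 35976 in the table: 36 of complex I, 4 of complex II, 9 of complex III, 20 of complex IV, 15 of complex V, the carrier cytochrome c (Cycs), and 9 assembly or related factors whose names share the prefixes (Ndufaf1 to Ndufaf7, Atp5s and Atp5sl). Ndufa4 and its paralog Ndufa4l2 were placed in complex IV, where the Ndufa4 protein is known to sit despite its complex I name.

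The respiratory chain passes electrons from NADH (complex I) and from succinate (complex II, succinate dehydrogenase) through coenzyme Q to complex III, then through cytochrome c to complex IV, which reduces oxygen. Complexes I, III and IV pump protons, and complex V, the ATP synthase, uses the proton gradient to make ATP. Each complex is built around a few catalytic subunits, and in every complex but complex II some core subunits are encoded in mitochondrial DNA. Activated macrophages make itaconate from the citric acid cycle, and it is known as a competitive inhibitor of succinate dehydrogenase.

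The study held 6 libraries of this one unmodified line, 3 of cells labelled as having had no treatment (control) and 3 of cells given itaconate for 24 h. Dose, chemical form and vehicle are not given in the labels, and neither is a batch or a date. Whether replicate libraries stem from separate cultures is not said either, so the p-values measure a spread among samples that may be technical. RNA was extracted with TRIzol and counted with the QuantSeq 3′ kit, which primes on the poly(A) tail, so the counts report the ends of transcripts.

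Library totals ran from 5202626 to 6098934 counts, at which 3 counts in a library correspond to 0.486 to 0.564 CPM (counts scaled by TMM to a common library size). The members took 1.98% ± 0.0732 of the control counts and 1.92% ± 0.0267 of the itaconate counts (SD, n = 3 each). Of 8 macrophage markers, all tested, 5 fell (Csf1r, Itgam, Fcgr1, Mpeg1 and Cd14) and Cd68 rose. These calls are 62.5% lower and 12.5% higher, against 11.2% lower and 10.7% higher of all tested genes. The summed level of the 8 markers was 8803 to 10140 CPM in control and 6496 to 6922 CPM in itaconate libraries. The macrophage label thus had its markers in every library, while the part of their change in the results on the respiratory chain was not tested. Markers of epithelium, neutrophils, fibroblasts and lymphocytes (B, T and NK cells) were near absent: 12 of 20 had 0 counts in all 6 libraries, none reached the level needed for a test, and their summed level was 2.5 to 3.16 CPM in control and 2.8 to 3.19 CPM in itaconate libraries.

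Most members of the respiratory chain differed little between the groups, and a few subunits stood apart. Of the 88 members with enough counts to test, 7 rose (Cox6a2, Uqcrq, Ndufb3, Ndufb4, Ndufv3, Ndufab1 and Ndufa1), 2 fell (Sdha and Atp5k), and 79 did not pass the test, a call being an adjusted p under 0.05 in edgeR's quasi-likelihood test. The called share of the members was 10.2%, against 21.9% of all 10636 genes tested (10.7% higher and 11.2% lower). Restricted to genes with a mean log2 CPM of at least 5, the called share was 12% of 75 members against 30.7% of 5076 genes. In bulk libraries a change in the number of cells in some state and a change in RNA per cell cannot be told apart.

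The members' fold changes, given as log2 of itaconate over control, lay close to 0. Their median was 0.00 with quartiles at -0.09 and 0.12, while all tested genes had a median of -0.01 with quartiles at -0.29 and 0.27. The median size of change, ignoring sign, was 0.11 for the members and 0.28 for all tested genes. A change of at least 0.5 in either direction was seen in 4 members, 4.55% of those tested, against 27.2% of all genes. At a mean log2 CPM of at least 5, the median size was 0.08 for the members and 0.22 for all genes. A change of at least 0.5 was then seen in 2.67% of the members and 16.9% of all genes. The precision allowed a bound on most members: for 67 of 88 (76.1%) the whole 95% interval of the log2 fold change lay between -0.5 and 0.5, against 26.9% of all tested genes. Among genes with a mean log2 CPM of at least 5, that share was 86.7% of the members and 51.5% of all genes. These shares describe the list beside all genes, and the difference between them was not tested.

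**Figure D1:**
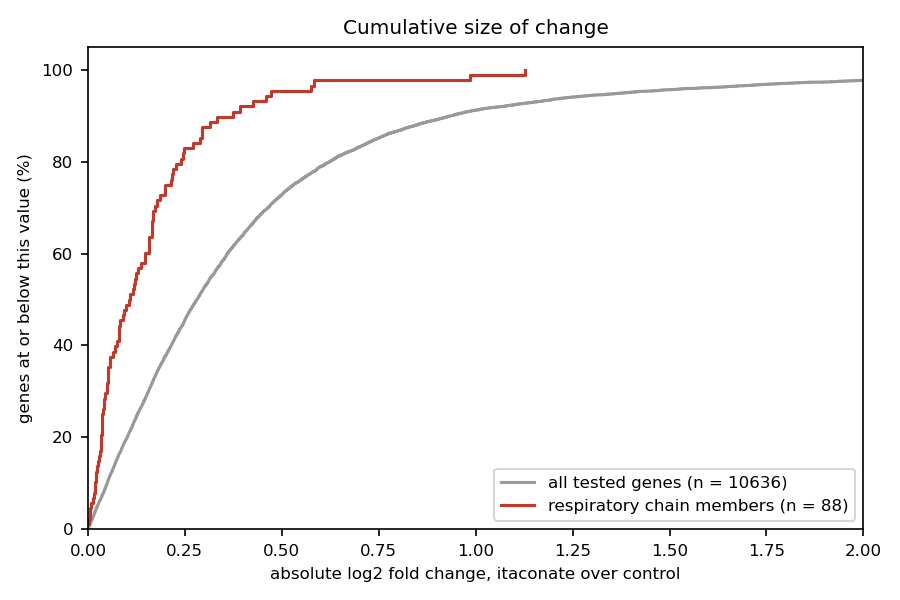
Cumulative percentage of genes (vertical axis) at or below a given absolute log2 fold change between itaconate and control (horizontal axis), for the 88 tested members (red) and all 10636 tested genes (grey). The members' curve lies to the left, with a median of 0.11 against 0.28. At a mean log2 CPM of at least 5 (not drawn) the medians were 0.08 and 0.22.

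Summed over each complex, the groups overlapped for complexes I, III and IV. Complex I members together were at 5922 ± 312 CPM without and 6091 ± 121 CPM with itaconate (SD over 3 libraries, as for all means that follow). Complex III members were at 2649 ± 220 and 2809 ± 168 CPM, and complex IV members at 4694 ± 237 and 4728 ± 109 CPM. Complex II members were at 757 ± 31.3 and 703 ± 37.8 CPM and complex V members at 5160 ± 173 and 4927 ± 151 CPM, which in both cases also overlapped between libraries. The median log2 fold change was 0.02 in complex I, -0.01 in complex II, 0.02 in complex III, -0.01 in complex IV and -0.03 in complex V.

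**Figure D2:**
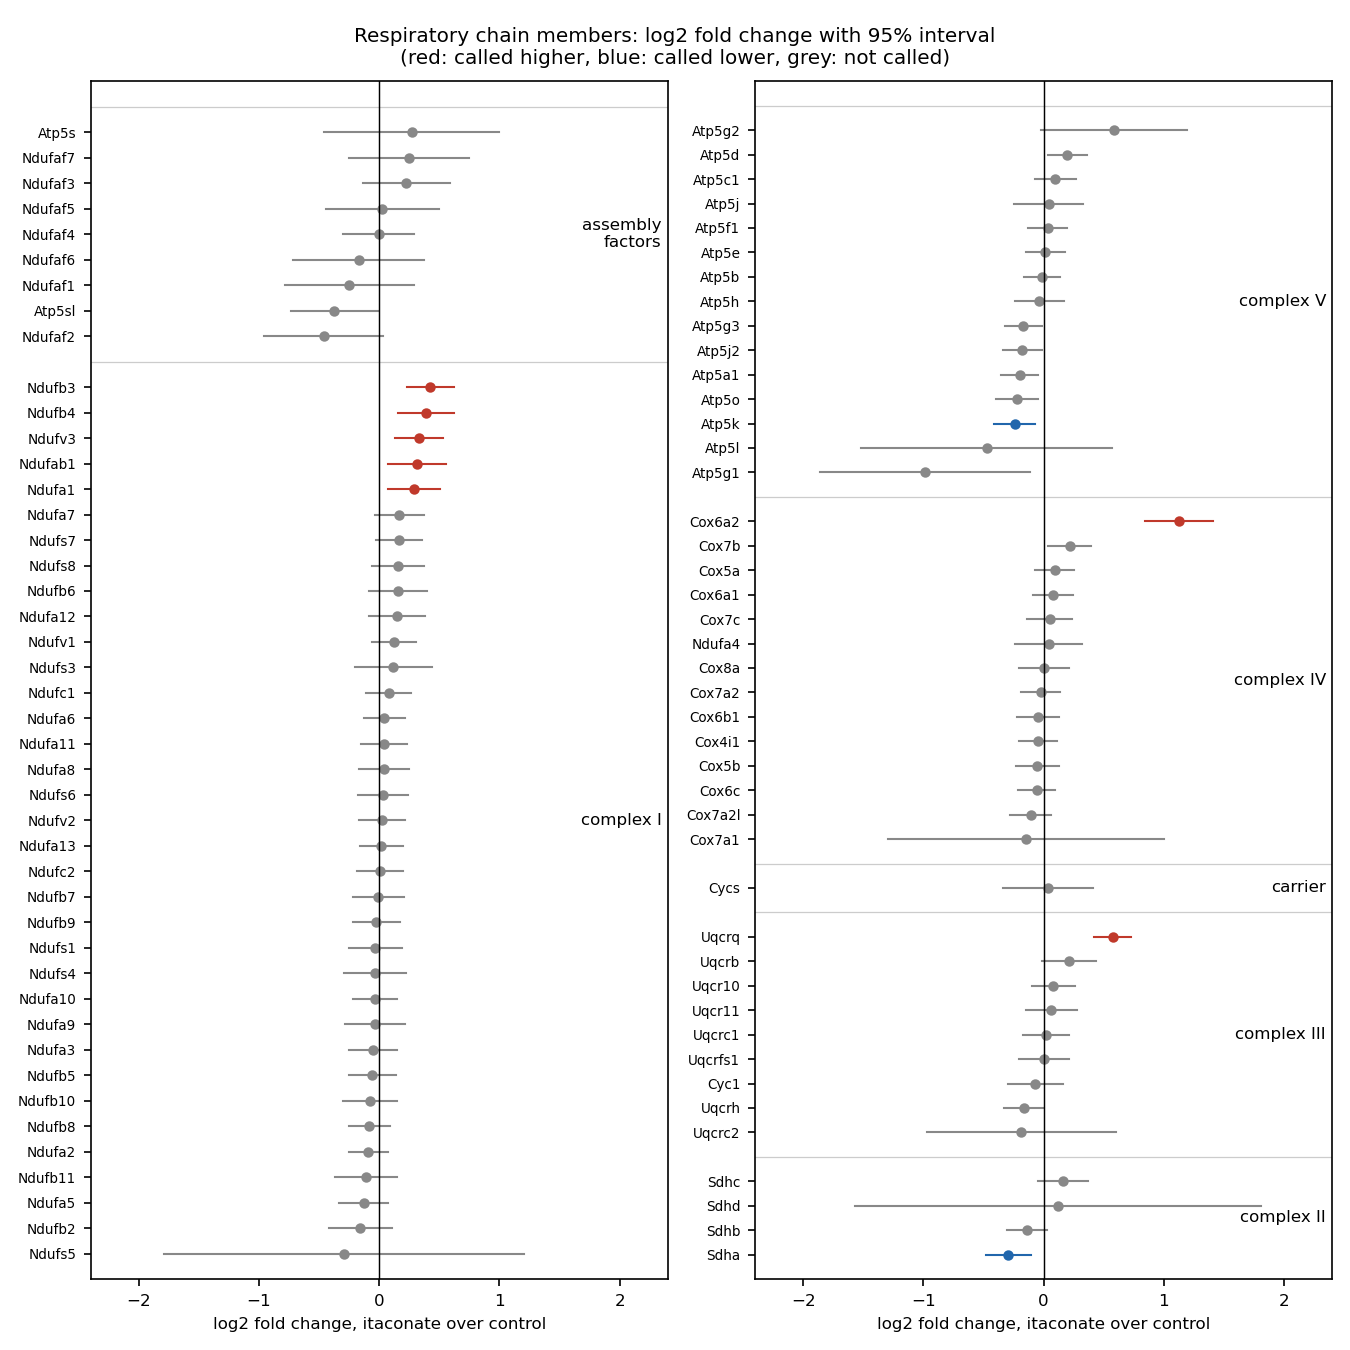
Log2 fold change of itaconate over control (horizontal axis) for the tested members reported here (rows, grouped by complex), with bars for the 95% interval. Most points lie near 0, and those called are coloured: 7 higher (red) and 2 lower (blue).

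The scaling moved the balance of calls. Scaled by TMM, 7 members were called higher and 2 lower, but scaled by library totals alone 5 were called higher and 7 lower (22.2% of all genes were called in this fit), with Atp5a1, Atp5g3, Atp5j2, Atp5o and Uqcrh joining Sdha and Atp5k. All tested genes moved the same way, from 10.7% called higher and 11.2% lower with TMM to 8.79% higher and 13.4% lower with library totals. Under library totals the median of all tested genes itself stood at -0.06. DESeq2 called 5 members higher and 3 lower, and 15.5% of all genes. Without control replicate 3 the calls were 3 higher and 4 lower (17.6% of all genes called). Without itaconate replicate 2, 5 were higher and 0 lower in edgeR (16.9% of all genes called). The 3 members called higher under every one of 13 alternatives were Cox6a2, Uqcrq and Ndufb3.

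Promoter windows are shown for the called members that hold a binding motif of NRF1, a transcription factor known to act on many respiratory genes. The motif was searched as GCGCA, any 1 base and GCGC, on both strands, in the 250 bases before the annotated start, in RefSeq sequence of GRCm38.p6, for the 77 of 94 members with an entry. It was found in 13 of these windows (16.9%), against 3.86% of 27025 promoters of all genes. The called members among the 13 were Sdha, Ndufb4 and Atp5k, and Cox6a1, which was not called, is shown beside them as the paralog of the most changed member. Each window is printed 5′ to 3′ on the strand of its gene, with the NRF1 motif in capitals.
Sdha: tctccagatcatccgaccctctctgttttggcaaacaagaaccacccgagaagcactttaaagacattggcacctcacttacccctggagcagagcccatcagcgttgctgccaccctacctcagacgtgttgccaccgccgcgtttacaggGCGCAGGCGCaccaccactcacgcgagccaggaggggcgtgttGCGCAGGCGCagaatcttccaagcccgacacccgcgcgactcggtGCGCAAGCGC
Ndufb4: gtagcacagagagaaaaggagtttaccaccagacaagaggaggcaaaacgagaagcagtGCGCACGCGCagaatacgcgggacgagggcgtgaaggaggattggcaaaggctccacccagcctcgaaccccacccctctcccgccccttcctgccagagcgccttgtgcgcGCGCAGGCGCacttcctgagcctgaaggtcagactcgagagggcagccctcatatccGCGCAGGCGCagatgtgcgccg
Atp5k: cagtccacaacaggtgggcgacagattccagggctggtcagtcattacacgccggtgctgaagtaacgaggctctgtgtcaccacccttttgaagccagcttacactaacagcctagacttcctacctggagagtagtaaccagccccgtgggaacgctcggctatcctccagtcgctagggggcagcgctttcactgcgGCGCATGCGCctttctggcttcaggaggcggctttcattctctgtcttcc
Cox6a1: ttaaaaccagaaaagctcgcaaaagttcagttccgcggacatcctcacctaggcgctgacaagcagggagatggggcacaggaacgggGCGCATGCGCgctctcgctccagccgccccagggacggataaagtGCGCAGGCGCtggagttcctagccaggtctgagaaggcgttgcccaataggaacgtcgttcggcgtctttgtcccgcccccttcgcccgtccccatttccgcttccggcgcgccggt

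The Sdha window (chr13:74350241-74350490, minus strand) held 3 copies, whose first bases lie at -98, -55 and -10 from the start, and it also overlaps Ccdc127, annotated on the opposite strand. The Ndufb4 window (chr16:37654369-37654618, minus strand) held 3 copies, at -191, -79 and -22. The Atp5k window (chr5:108434400-108434649, minus strand) held 1 copy at -50, and the Cox6a1 window (chr5:115348959-115349208, minus strand) held 2, at -162 and -117, and overlaps Gm42903 on the opposite strand. The same motif thus stood before a gene that rose, 2 genes that fell and a gene that was not called. Over all 13 members with the motif, 1 was called higher, 2 lower and 10 not called, with a median log2 fold change of 0.03. Of the 61 tested members whose window held no match, 4 were called higher and 0 lower, with a median of 0.02. Cox6a2 and Uqcrq, both called higher, are without a promoter entry and fall in neither group. Over all tested genes 10.7% were called higher and 11.2% lower. Whether members with and without the motif differ was not tested. The other members with a match were Atp5g2, Atp5h, Ndufa11, Ndufa5, Ndufa8, Ndufaf4, Ndufs5, Ndufs6 and Sdhd, none of them called.

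Other motifs were closer to their frequency over all promoters. The ETS motif CCGGAAGT was in 3 member windows (3.90%, against 2.93% of all promoters), and the antioxidant response element TGACNNNGC, bound by NRF2, in 8 (10.4%, against 10.1%). The CCAAT box, searched as CCAAT, was in 35 (45.5%, against 34.5%), and the YY1 motif AAGATGGC in 0 (against 1.59%). A match describes the letters of the window and not a bound site.

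Complex I, the NADH dehydrogenase, had 5 of its 36 members called higher and 0 lower in edgeR, all 5 among its 29 accessory subunits. The 13.9% called higher lies near the 10.7% of all tested genes. At an unadjusted p under 0.05, and in DESeq2 and limma-voom, 0 of its members were lower as well. Over all tested genes 11.2% were called lower in edgeR and in limma-voom, and 7.88% in DESeq2. The difference in share was not tested. Ndufb3, a small subunit of the membrane arm (chr1:58586397-58595964, plus strand), was at 137, 155 and 159 CPM in the control libraries and 192, 201 and 213 CPM in the itaconate libraries. The lowest itaconate library was above the highest control library, and the gene rose by 0.43 ± 0.10 (log2 fold change ± SE, adjusted p = 0.000715). Over the alternatives its adjusted p stayed between 0.000406 and 0.013.

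Ndufb4, another subunit of the membrane arm (chr16:37647602-37654368, minus strand), was at 86.8, 101 and 84.1 CPM in control and 115, 134 and 108 CPM in itaconate libraries. The groups did not overlap, although itaconate replicate 3 and control replicate 2 lay close to each other. It rose by 0.39 ± 0.12 (adjusted p = 0.0108), but with control replicate 3 left out the adjusted p was 0.0636, and with itaconate replicate 2 left out it was 0.128. Ndufv3, a small accessory subunit beside the NADH-oxidising flavoprotein (chr17:31520115-31531326, plus strand), was at 151, 131 and 126 CPM in control and 171, 173 and 170.4 CPM in itaconate libraries. The itaconate libraries were all above the controls and nearly level with each other. It rose by 0.33 ± 0.10 (adjusted p = 0.0117), and leaving out control replicate 2 (0.0622) or control replicate 3 (0.0739) ended the call.

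The remaining complex I calls were at the edge of the threshold. Ndufab1 (chr7:122086815-122101848, minus strand) encodes the mitochondrial acyl carrier protein, which serves mitochondrial fatty acid synthesis as well as complex I. Its level was 85.0, 89.3 and 72.5 CPM in control and 103, 104 and 100.5 CPM in itaconate libraries, a rise of 0.32 ± 0.12 (adjusted p = 0.049). Ndufa1, a small membrane-arm subunit encoded on the X chromosome (chrX:37187588-37191238, minus strand), was at 112, 115 and 115 CPM in control and 157, 128 and 133 CPM in itaconate libraries, a rise of 0.29 ± 0.11 (adjusted p = 0.0463). The groups did not overlap for either gene. The call of Ndufab1 was lost in 8 of 13 alternatives (adjusted p up to 0.228, without control replicate 3), among them DESeq2 (0.0838), library totals, no filter and every left-out library except control replicate 2. That of Ndufa1 was lost in 9 of 13 (adjusted p up to 0.267, without itaconate replicate 1), among them DESeq2 (0.0743), limma-voom, library totals, no filter and the omission of any control library.

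**Figure D3:**
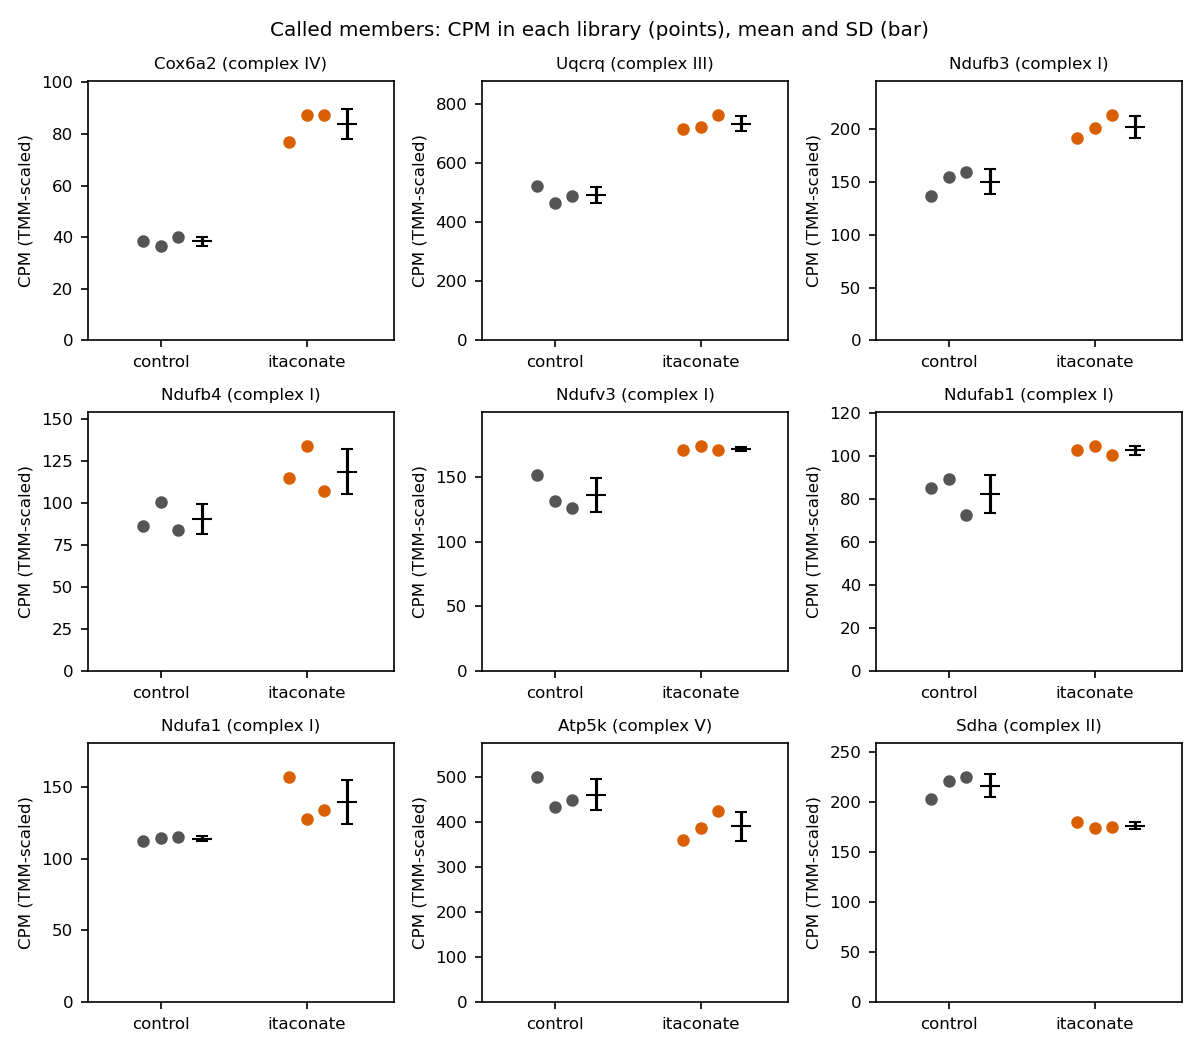
CPM (vertical axis, from 0) of the 9 called members in each control (grey) and itaconate (orange) library, with the mean and SD of 3 libraries as a bar beside the points. In every panel the libraries of the groups do not overlap. Cox6a2 was at 36.6 to 40.0 CPM in control and 77.0 to 87.2 CPM in itaconate libraries. The gap was narrow for Atp5k, at 433 to 499 CPM in control and 359 to 424 CPM in itaconate libraries.

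The 7 core subunits of complex I, which carry the flavin and the iron-sulfur clusters or line the coenzyme Q site, were not called in edgeR, DESeq2 or limma-voom, and 0 of them had an unadjusted p under 0.05. Over all tested genes edgeR called 21.9%, and 32.2% had an unadjusted p under 0.05. The log2 fold change was -0.03 for Ndufs1, 0.02 for Ndufv2, 0.12 for Ndufs3 and Ndufv1, and 0.16 for Ndufs7 and Ndufs8. Each of these 95% intervals lay inside -0.5 to 0.5. For Ndufs7, a subunit next to the coenzyme Q site, control libraries were at 180.3, 165 and 158 CPM and itaconate libraries at 194, 181 and 188 CPM. These values did not overlap, yet the difference of 0.16 ± 0.10 did not pass the test (adjusted p = 0.236). The lowest log2 fold change in complex I belonged to Ndufs5 (-0.29 ± 0.74, adjusted p = 0.836), which had 1.3 to 2.09 CPM in itaconate and 0.972 to 3.16 CPM in control libraries. At these counts its interval, -1.79 to 1.20, bounds little, and 47.8% of the 50-base stretches at the 3′ end of its transcripts also occur in another gene, so the counting may have split or dropped its reads.

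Complex II, succinate dehydrogenase, is wholly nuclear-encoded and is the complex that itaconate is known to inhibit. Of its 4 members 1 was called (25%, against 21.9% of all tested genes). Sdha, its flavoprotein with the succinate site (chr13:74322255-74350240, minus strand), was at 204, 221 and 225 CPM in control and 180.4, 175 and 175 CPM in itaconate libraries. All itaconate libraries were below all controls, and the log2 fold change was -0.29 ± 0.09 (adjusted p = 0.0167). Leaving out any 1 of 3 libraries ended the call: control replicate 2 (adjusted p 0.0713), control replicate 3 (0.0701) and itaconate replicate 2 (0.071).

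Sdhb, the iron-sulfur subunit, was at 383, 351 and 367 CPM in control and 339, 315 and 346 CPM in itaconate libraries. Its groups did not overlap either, but the difference of -0.14 ± 0.08 was not called (adjusted p = 0.262, 95% interval -0.31 to 0.03). The membrane anchors bind coenzyme Q and heme. Sdhc was at 124, 136 and 125 CPM in control and 149, 132 and 151 CPM in itaconate libraries, an overlap, with a difference of 0.17 ± 0.10 (adjusted p = 0.281). Sdhd ranged from 14.0 to 70.1 CPM among the controls alone (14.0, 52.2 and 70.1) and was at 40.0, 41.4 and 65.9 CPM in itaconate libraries, so its interval reached from -1.57 to 1.81. Its sign turned to -0.31 without control replicate 1 and to -0.15 without itaconate replicate 3.

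In complex III, the cytochrome bc1 complex, 1 of 9 members was called (11.1%, against 21.9% of all tested genes). Uqcrq, a small subunit beside cytochrome b (chr11:53427922-53430831, minus strand), was at 522, 467 and 489 CPM in control and 714, 724 and 762 CPM in itaconate libraries. The gap between the groups was several times the spread within either, and the gene rose by 0.57 ± 0.08 (adjusted p = 7.07e-08), 1.49-fold. Over the 13 alternatives its log2 fold change ran from 0.52 to 0.62, with an adjusted p of at most 2.35e-05. The 3′ end of its transcripts shares no 50-base stretch with another gene.

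The electron-carrying subunits of complex III and the carrier after it did not pass the test. Cyc1, cytochrome c1, had a log2 fold change of -0.07 ± 0.11 (adjusted p = 0.731), and Uqcrfs1, the Rieske iron-sulfur protein, one of 0.00 ± 0.10 (adjusted p = 0.994). Cycs, cytochrome c, was at 35.4, 28 and 28.6 CPM in control and 36.1, 29.3 and 29.1 CPM in itaconate libraries, a difference of 0.04 ± 0.19 (adjusted p = 0.924). The signs of these 3 genes turned with the choice of library or scaling, as values this near 0 can. Uqcrb, a small subunit that binds near cytochrome b, was at 123, 117 and 95.8 CPM in control and 135, 128 and 126 CPM in itaconate libraries, apart but not called (0.21 ± 0.11, adjusted p = 0.175). Of its 3′-end stretches, 40.6% occur in other genes. Uqcrh, the hinge protein beside cytochrome c1, was not called (-0.17 ± 0.08, adjusted p = 0.143) but was called lower with library totals (0.0324), without control replicate 3 (0.0204) and without itaconate replicate 3 (0.0348). The lowest log2 fold change was that of Uqcrc2 (-0.18 ± 0.39), a gene at 5.22 to 8.83 CPM, of whose 3′-end stretches 50% occur in another gene.

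Complex IV, cytochrome c oxidase, held the largest change among the members. Of its 14 tested members 1 was called (7.14%, against 21.9% of all tested genes). Cox6a2 is the isoform of subunit VIa known from heart and skeletal muscle, and Cox6a1 is its widely expressed partner. Cox6a2 (chr7:128205435-128206366, minus strand) was at 38.6, 36.6 and 40.0 CPM in control and 77.0, 87.2 and 87.2 CPM in itaconate libraries. Every itaconate library was far above every control library, and the gene rose by 1.13 ± 0.14 (adjusted p = 9.59e-09), 2.18-fold. The log2 fold change ran from 1.07 to 1.18 over the 13 alternatives, with an adjusted p of at most 1.46e-06. The gene lies inside Itgad, with exons that overlap on the opposite strand, and Itgad had 0 counts in all 6 libraries. Of the 50-base stretches at its 3′ end, 8.37% occur in 1 other gene.

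Cox6a1 was at 424, 391 and 365 CPM in control and 415, 403 and 425 CPM in itaconate libraries, an overlap, with a difference of 0.07 ± 0.08 (adjusted p = 0.585, 95% interval -0.09 to 0.24). Cox6a2 therefore took 8.34%, 8.56% and 9.89% of the 3′ counts of the pair in control and 15.7%, 17.8% and 17.0% in itaconate libraries. The means were 8.93% ± 0.836 and 16.8% ± 1.08. The groups did not overlap, which in an exact two-sided permutation test of 3 against 3 gives the smallest possible p of 0.1 (0.167 adjusted over 5 such shares), so that test cannot pass 0.05 here.

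The other tested members of complex IV, all accessory to the mitochondrially encoded catalytic core, were not called. Excluding Cox6a2, their log2 fold changes ran from -0.15 (Cox7a1) to 0.22 (Cox7b). Cox4i1, the most studied regulatory subunit, was at -0.05 ± 0.08, and Ndufa4 at 0.04 ± 0.14. Cox7b, a small membrane subunit, was at 261, 245 and 227 CPM in control and 301, 295 and 257 CPM in itaconate libraries, which overlapped, and was not called (adjusted p = 0.0793), except with itaconate replicate 3 left out (0.29, adjusted p = 0.0187). Cox7a1, the muscle isoform of subunit VIIa, was at 2.05 to 6.88 CPM over the 6 libraries, with an interval of -1.3 to 1.0. Its share in the pair with Cox7a2 was 0.796% ± 0.538 in control and 0.700% ± 0.339 in itaconate libraries (exact two-sided permutation p = 0.8). Cox7a2l, which takes part in supercomplexes of complexes III and IV, was at -0.10 ± 0.09.

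The 6 members that could not be tested were all isoforms of complex IV subunits known from other tissues or conditions. Cox7b2 and Cox8b had 0 counts in every library, which allows at most 0.486 to 0.564 CPM per library by the floor of 3 counts. Cox4i2, the hypoxia-associated partner of Cox4i1, had 0, 0 and 1 counts in control and 0, 3 and 10 counts in itaconate libraries. Cox8c had 4 and 8 counts in 2 itaconate libraries and 0 elsewhere, Cox6b2 had 9 counts in 1 control library and 0 elsewhere, and Ndufa4l2 had 1 count in all. These levels were too low for a statement on change.

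**Figure D4:**
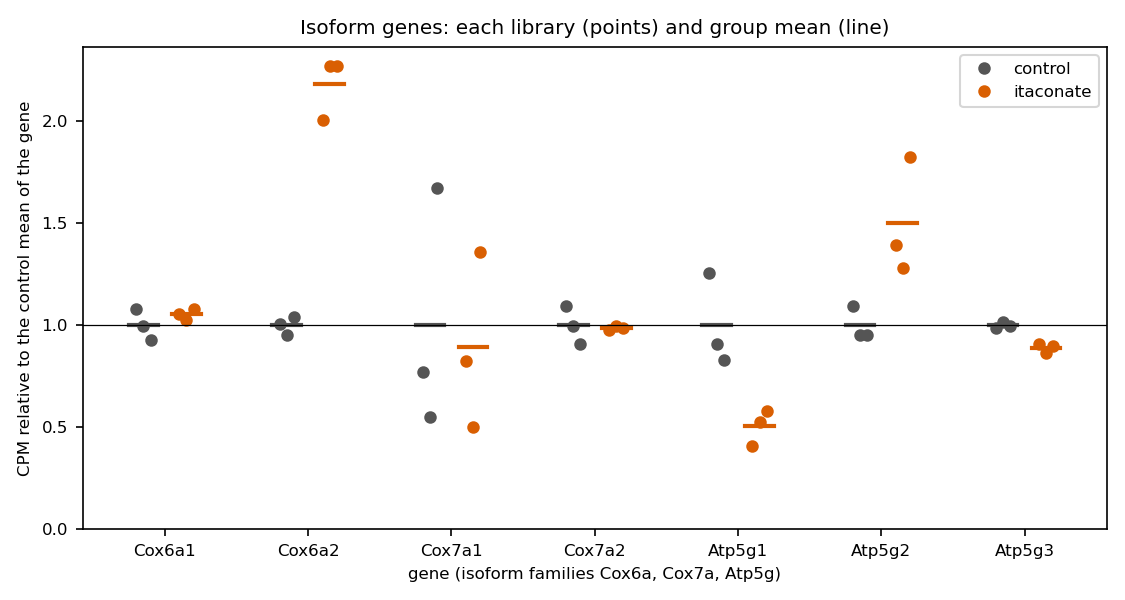
CPM of 7 isoform genes relative to the control mean of the same gene (vertical axis, from 0), with a point for each control (grey) and itaconate (orange) library and a line at each group mean. The itaconate libraries of Cox6a2 stand near 2 times the control mean while those of Cox6a1 and Cox7a2 stay near 1, and the widely scattered Cox7a1, Atp5g1 and Atp5g2 are genes with low counts.

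Complex V, the ATP synthase, had 1 of 15 members called (6.67%, against 21.9% of all tested genes), and it fell. At an unadjusted p under 0.05 stood 7 of the 15 (46.7%, against 32.2% of all tested genes). Control and itaconate libraries were apart with itaconate lower for 5 members and higher for 2. Over all tested genes 17.9% were apart lower and 17.7% higher, and these differences in share were not tested. Atp5k, subunit e of the membrane part, which is known to help pair ATP synthases along the cristae (chr5:108433246-108434399, minus strand), was at 499, 433 and 449 CPM in control and 359, 387 and 424 CPM in itaconate libraries. The groups were separated by a narrow gap between control replicate 2 and itaconate replicate 3. The log2 fold change was -0.24 ± 0.08 (adjusted p = 0.0338), and it was not called when control replicate 1 (0.197), itaconate replicate 1 (0.183) or itaconate replicate 2 (0.112) was left out.

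Of the 5 subunits of the catalytic F1 head 0 were called in edgeR, against 21.9% of all tested genes. At an unadjusted p under 0.05 were 2 (40%, against 32.2% of all tested genes), and DESeq2 and limma-voom called 1 each. All 5 intervals lay inside -0.5 to 0.5. Atp5b, the beta subunit with the catalytic sites, was at -0.01 ± 0.08 and Atp5c1, the rotating gamma subunit, at 0.10 ± 0.08. Atp5a1, the alpha subunit, was at 642, 623 and 643 CPM in control and 536, 585 and 543 CPM in itaconate libraries, and Atp5d, the delta subunit, went the other way, at 446, 483 and 440.1 CPM in control and 499.8, 494 and 577 CPM in itaconate libraries. Neither gene's groups overlapped, and both missed the threshold in edgeR, Atp5a1 at -0.20 ± 0.08 (adjusted p = 0.0593) and Atp5d at 0.20 ± 0.08 (adjusted p = 0.0774). Atp5a1 was called lower by DESeq2 (0.0243), by limma-voom (0.0466) and with library totals (0.0116).

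The stalk and membrane subunits had a median log2 fold change of -0.18 over 7 genes. Besides Atp5k, Atp5j2 (-0.18 ± 0.08, adjusted p = 0.111) had itaconate libraries all below the controls, and Atp5o, the peripheral stalk subunit known as OSCP, was at -0.22 ± 0.09 (adjusted p = 0.0637) with overlapping groups. Atp5o was called lower with library totals (0.0156), without control replicate 3 (0.0265) and without itaconate replicate 3 (0.0283). Atp5f1, Atp5h and Atp5j lay between -0.03 and 0.04. Atp5l, subunit g, had 2.05 to 7.68 CPM and shares 70.1% of its 3′-end stretches with 11 other genes, so its value of -0.47 ± 0.52 is uncertain.

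The membrane ring of the ATP synthase is built of identical c subunits that 3 genes encode, Atp5g1, Atp5g2 and Atp5g3. Atp5g3 was at 613, 632 and 618 CPM in control and 564, 537 and 559 CPM in itaconate libraries, apart from each other, with a difference of -0.17 ± 0.08 that did not pass the test (adjusted p = 0.116). Atp5g1 had 59, 44 and 35 counts in control and 17, 22 and 26 counts in itaconate libraries, and Atp5g2 had 60, 54 and 47 against 68, 63 and 96. Neither pair of groups overlapped, in opposite directions, and neither gene was called: Atp5g1 was at -0.99 ± 0.44 (adjusted p = 0.102) and Atp5g2 at 0.58 ± 0.30 (adjusted p = 0.175). Of the 3′-end stretches, 36.0% for Atp5g1 and 55.5% for Atp5g2 occur in other genes, so both counts may hold only part of their reads. Among the 3′ counts of the family, Atp5g1 took 1.23% ± 0.286 in control and 0.692% ± 0.124 in itaconate libraries, and Atp5g2 took 1.44% ± 0.126 and 2.41% ± 0.419. Both shares were at the smallest exact two-sided permutation p of 0.1 (0.167 adjusted over 5 shares).

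The 9 assembly and related factors named like subunits were not called in edgeR (against 21.9% of all tested genes), DESeq2 or limma-voom. Of these, 1 had an unadjusted p under 0.05 (11.1%, against 32.2% of all tested genes). With control replicate 3 left out, Atp5sl was called lower in edgeR (-0.52, adjusted p = 0.0494). Their log2 fold changes ran from -0.46 (Ndufaf2) to 0.27 (Atp5s), with a median of 0.00. They had fewer counts than most subunits, and 2 of 9 had an interval inside -0.5 to 0.5.

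Beyond the 9 calls, another 9 members had control and itaconate libraries that did not overlap. Together 11 members were apart with itaconate higher and 7 with itaconate lower, while 70 overlapped. Over all tested genes 35.6% were apart (17.7% higher and 17.9% lower), against 18 of the 88 tested members. The count at an unadjusted p under 0.05 was also 18 of 88 (20.5%, against 32.2% of all tested genes). For 57 of the 92 members matched to transcripts of the GENCODE annotation, no 50-base stretch at the 3′ end occurs in another gene, and 8 share 50% or more.

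Other genes of the pathway were followed in 9 lists, which cover mitochondrially encoded subunits, assembly factors of each complex, coenzyme Q synthesis, other enzymes that feed coenzyme Q, and regulators of respiratory genes. Of 81 tested genes 9 rose and 5 fell (17.3%, against the 21.9% of all genes), with a median log2 fold change of 0.03. Without control replicate 3 the number called was 9, and 17.6% of all genes were called.

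**Figure D5:**
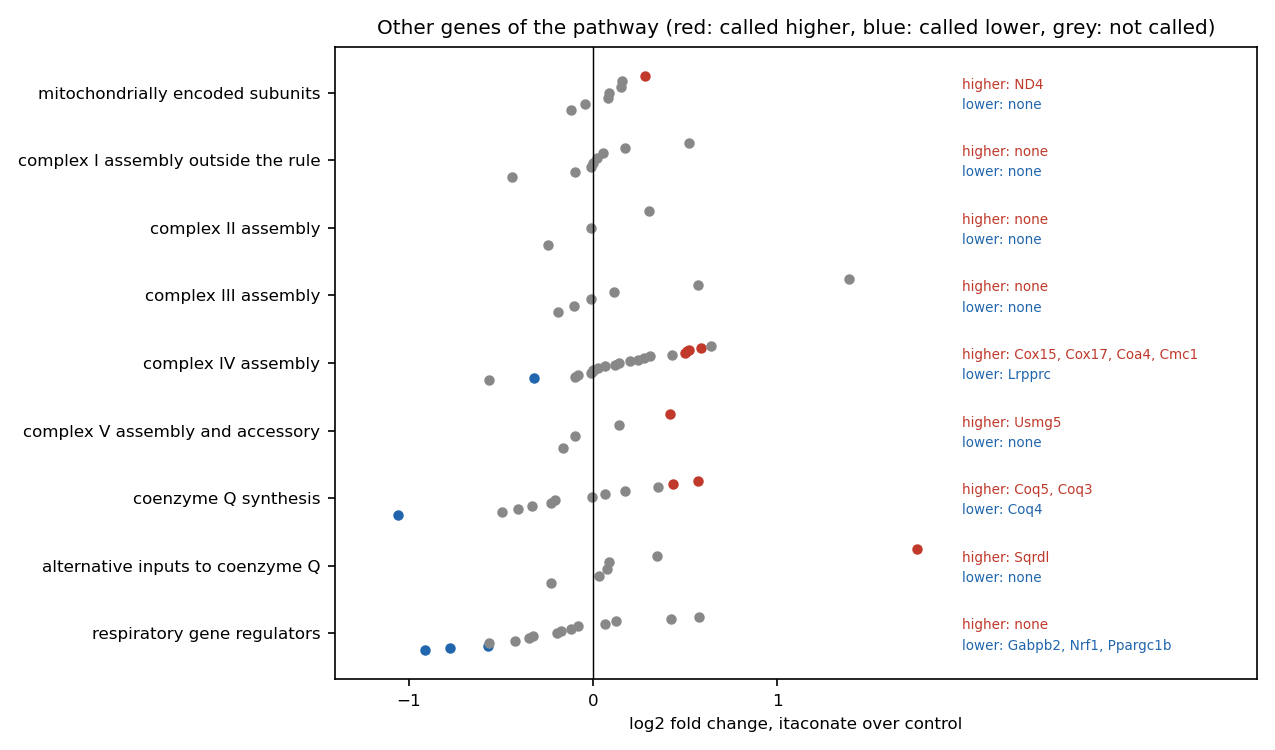
Log2 fold change of itaconate over control (horizontal axis) for each tested gene (point) of 9 lists of other respiratory pathway genes (rows), with called genes coloured and named at the right. Sqrdl at 1.76 is the point farthest to the right, and Coq4 at -1.06 the farthest to the left.

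Mitochondrial DNA encodes 13 of the subunits, of which 7 could be tested and 1, ND4 of complex I, was called higher (14.3%, against 10.7% of all tested genes). ND4 was at 17091, 21048 and 15969.7 CPM in control and 24559, 21051 and 20213 CPM in itaconate libraries. The groups overlapped, the log2 fold change was 0.28 ± 0.08 (adjusted p = 0.0135), and the call was lost in 6 of 13 alternatives, with an adjusted p of up to 0.25. Over the 7 the median was 0.08, with ND1 at -0.12, CYTB at 0.08 and COX1 at 0.16. ND3, ND4L, COX2, COX3, ATP6 and ATP8 had at most 5 counts in any library and were not tested. How reads were assigned to these rows is not given. Their low counts are therefore no measure of how much of these transcripts the cells held.

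Assembly factors of complexes I, II and III had 0 of 17 tested genes called in edgeR, DESeq2 or limma-voom, and 3 at an unadjusted p under 0.05. Over all tested genes edgeR called 21.9%, and 32.2% had an unadjusted p under 0.05. Complex IV assembly had 4 of 21 called higher and 1 lower, with a median of 0.14. This called share of 23.8% lies near the 21.9% of all tested genes. By direction it was 19% higher and 4.76% lower, against 10.7% and 11.2% of all tested genes, a difference that was not tested. Cox17, the copper chaperone that supplies cytochrome c oxidase, was at 100.2, 112 and 107 CPM in control and 159.9, 157 and 138 CPM in itaconate libraries, and rose by 0.51 ± 0.11 (adjusted p = 0.00021). Cmc1, a small twin-cysteine protein that acts early in the assembly of COX1, was at 49.3, 60.6 and 56.4 CPM in control and 73.5, 86.1 and 90.0 CPM in itaconate libraries, and rose by 0.59 ± 0.14 (adjusted p = 0.000845). Both calls held in all 13 alternatives, and the groups did not overlap for either.

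The other called assembly factors were less stable. Coa4, another twin-cysteine protein, rose by 0.52 ± 0.16 (adjusted p = 0.0147), but not when control replicate 1 (0.0884) or itaconate replicate 2 (0.0714) was left out. Cox15, of the heme A synthesis step, rose by 0.50 ± 0.18 (adjusted p = 0.0429), a call lost in 10 of 13 alternatives, with an adjusted p of up to 0.269. Lrpprc, which stabilises mitochondrial messenger RNAs, was at 156, 183 and 125 CPM in control and 137, 124 and 111 CPM in itaconate libraries, which overlapped. It was called lower at -0.32 ± 0.11 (adjusted p = 0.0363), and the call was lost in DESeq2 (0.114) and on leaving out control replicate 1 (0.0947) or 2 (0.376) or itaconate replicate 2 (0.0927) or 3 (0.146). Usmg5, a small membrane subunit of the ATP synthase whose symbol falls outside the rule, was at 112, 113 and 103 CPM in control and 145, 149.7 and 144 CPM in itaconate libraries. It rose by 0.41 ± 0.10 (adjusted p = 0.00231), in all 13 alternatives too, while Atp5k of the same membrane part fell.

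Coenzyme Q, the carrier between complexes I or II and complex III, is made by the Coq proteins, of which 12 were tested, 2 rose and 1 fell (25%, against 21.9% of all tested genes). Coq4, which is needed to assemble the synthesis complex, was at 17.4, 18 and 20.6 CPM in control and 7.70, 10.4 and 8.72 CPM in itaconate libraries. The groups did not overlap, and it fell by 1.06 on the log2 scale (SE 0.28, adjusted p = 0.0035), a call held in all 13 alternatives. Of the methyltransferases of the pathway, Coq5 rose by 0.44 ± 0.13 (adjusted p = 0.0105), which did not hold without control replicate 3 (0.075), and Coq3 rose by 0.57 ± 0.19 (adjusted p = 0.0268). The call of Coq3 was lost in DESeq2 (0.0771) and on leaving out control replicate 2 (0.158) or 3 (0.0908) or itaconate replicate 1 (0.0656) or 2 (0.162). Among 6 tested enzymes that pass electrons to coenzyme Q from other substrates, 1 was called (16.7%, against 21.9% of all tested genes). Sqrdl, the sulfide quinone oxidoreductase, was at 25.4, 27.9 and 37.4 CPM in control and 104, 94.1 and 108 CPM in itaconate libraries, and rose by 1.76 ± 0.15 (adjusted p = 6.51e-14), 3.38-fold.

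Of 15 tested regulators of respiratory genes 3 fell and 0 rose in edgeR (0 also at an unadjusted p under 0.05 and by DESeq2 or limma-voom), with a median log2 fold change of -0.20. The share called lower was 20%, against 11.2% of all tested genes, and the share called higher 0%, against 10.7%. In either direction 21.9% of all tested genes were called. The difference in share was not tested. Nrf1, whose protein binds the motif printed in capitals above, was at 16.9, 26.2 and 28.8 CPM in control and 14.3, 11.7 and 15.9 CPM in itaconate libraries. The groups were just apart, and the difference of -0.78 ± 0.24 was called (adjusted p = 0.0162), but not in DESeq2 (0.053) or when control replicate 2 (0.0796) or 3 (0.119) or itaconate replicate 2 (0.0899) was left out. Gabpb2, a beta subunit of the ETS factor GABP, was at 46.9, 53.0 and 60.1 CPM in control and 28.2, 29.4 and 27.4 CPM in itaconate libraries, a clear separation, with a log2 fold change of -0.91 ± 0.17 (adjusted p = 3.3e-05).

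Ppargc1b, a coactivator of mitochondrial genes, was at 67.8, 60.8 and 60.4 CPM in control and 41.7, 50.1 and 35.6 CPM in itaconate libraries, and fell by 0.57 on the log2 scale (SE 0.15, adjusted p = 0.00415). Gabpb2 and Ppargc1b were called in all 13 alternatives. Gabpa, the DNA-binding subunit of GABP, was at -0.56 ± 0.23 (adjusted p = 0.0756), and Tfam, which packages mitochondrial DNA, at -0.32 ± 0.18 (adjusted p = 0.199), neither of them called. The values of these regulators stand beside member medians between -0.03 and 0.02 for the 5 complexes, and whether one bears on the other was not tested.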

How the data were processed

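The authors deposited 1 table of unnormalized read counts, with a row for each gene symbol. The build mm10 and the tools edgeR, HTSeq 0.6.1 and STAR 2.7.5a are named in the submitters' processing notes. How strand and multiply mapped reads were handled, and the annotation version, is not given in the sources used here. Tabs separate the header of the table and spaces its data lines, so columns were taken in header order, and 0 of 6 columns were left unused. Libraries were grouped by the treatment label.

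Genes were kept by edgeR's filterByExpr (minimum count 10, minimum total 15), which left 10636 genes, and scaled by TMM. Under R 4.3.3, edgeR 4.0.16 ran its quasi-likelihood F test (robust, two-sided, with the group as the only term) with Benjamini-Hochberg adjustment over all genes tested. SE was obtained as the size of the log2 fold change over the root of F. The scripts were tested on simulated data. Alternatives were DESeq2 1.42.0, limma-voom (limma 3.58.1), DESeq2 size factors, library totals, no filter, a minimum count of 30, a replicate block and leaving out each of 6 libraries. Intervals and floors cover counting error and the spread of these libraries only: the reads carry no molecular identifiers, so copies of 1 molecule may be counted more than once.

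The members, the pathway and marker lists and their tests were chosen with earlier results of these data known. The genes named are every called member, the largest and smallest log2 fold change of each complex, all of complex II, Cyc1, Cycs, the catalytic core, the isoform families, the mitochondrially encoded subunits and every called gene of the pathway lists. Other members given with values, such as Uqcrb, Atp5j2, Atp5o and Cox7a2l, and the regulators Gabpa and Tfam were added after their values were seen. Some counted members are not reported here by name. Coordinates and promoters are RefSeq's for GRCm38.p6, found for all 94 and for 77 members, with the first listed start used. Sharing at the 3′ end was counted over 50-base stretches of the last 300 bases of GENCODE transcripts.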

Additional observations from a re-analysis of the deposited data

How the results depend on the processing

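Of the 9 called members, Cox6a2, Uqcrq and Ndufb3 were called in all 13 alternatives, and the other 6 were lost in 1 or more. The number called lower was 7 with library totals (13.4% of all tested genes called lower), against 2 (11.2%). Leaving out 1 library at a time gave 3 to 7 members called higher, 0 to 4 called lower and 9 to 13 pathway genes called, against 14. Over all tested genes these fits called 16.7% to 19.1%, against 21.9% with all libraries. With library totals the sign turned for Cycs (-0.016) and Uqcrfs1 (-0.050). With a left-out library the log2 fold change ran from -0.31 to 0.57 for Sdhd, -0.19 to 0.038 for Cyc1, -0.084 to 0.018 for Cox4i1, -0.072 to 0.15 for Cycs and -0.051 to 0.068 for Uqcrfs1, so the sign of these genes is not given by the data. The complex medians stayed between -0.21 and 0.09. Same-numbered libraries showed no shared deviation (correlations of -0.004, 0.0115 and 0.0474). This cannot show whether they were set up as pairs, which the labels do not say. A fit with the replicate block called 6 members higher and 2 lower, and 10.2% of all tested genes higher and 10.9% lower. Depth limits the genes under about 10 CPM, such as Atp5g1, Atp5l, Cox7a1 and Ndufs5, whose intervals are wide, and the 6 untested isoforms.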
